A study of Mus musculus with 18 samples.

Results

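miR-143, miR-145 and miR-145* are 3 mature miRNAs from 2 neighbouring hairpins, and they were read here as 3 of the 583 rows of a table of miRNA levels in 18 mouse mammary tumour libraries. The rows were chosen by name, and all 3 were found and passed the filter on low values (a mean of at least 10 CPM, scaled reads in each 1000000, met by 281 of the 571 rows that differ from one another). Small RNA was sequenced on an Illumina Genome Analyzer IIx from tumours of F1 mice, each with 1 parent from an AKXD recombinant inbred strain and 1 from the line FVB/N-TgN(MMTV-PyVT)634Mul. AKXD strains carry fixed mixtures of the AKR/J and DBA/2J genomes, and all 18 groups share the PyVT transgene, polyoma middle T driven by the MMTV promoter, which is active mainly in mammary epithelium. The strains are 2, 3, 7, 9, 10, 11, 13, 14, 16, 18, 20, 21, 22, 23, 24, 25, 27 and 28, and each is 1 pool of tumour RNA, so a difference between strains has no replicate check. The sources used here give neither ages nor the number of animals in a pool. In a bulk tumour, fewer cells of a type and less RNA per cell cannot be told apart.

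miR-143 and miR-145 are best known from smooth muscle, where the transcription factor SRF and its cofactor myocardin drive their shared primary transcript and where both favour the contractile state by lowering regulators of growth such as KLF4 and ELK1. They are also made in fibroblasts, pericytes and other mesenchymal cells, and they are lower in many carcinomas than in normal tissue. A hairpin is cut into a pair of arms: the guide arm, here miR-143 or miR-145, is loaded into the silencing complex, and the passenger arm, marked with a star, is mostly broken down.

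The results below set the 3 miRNAs beside the miRNAs whose levels were most like or unlike theirs, and the mature sequences of 8 of these are shown (RefSeq, GRCm38.p6, 5′ to 3′) because several share a seed. The capitals mark the seed, bases 2 to 8, which pairs with target mRNAs. The first 4 had a positive or negative correlation with miR-143 and the last 4 with miR-145.
let-7i: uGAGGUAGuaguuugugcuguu
let-7f: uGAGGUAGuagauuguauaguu
let-7a: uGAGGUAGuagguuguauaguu
miR-106b: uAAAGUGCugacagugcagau
miR-23a: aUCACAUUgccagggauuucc
miR-24-1*: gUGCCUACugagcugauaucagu
miR-24-2*: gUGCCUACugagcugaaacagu
miR-200c: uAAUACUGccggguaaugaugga
The 3 let-7 miRNAs share the seed GAGGUAG, and miR-24-1* and miR-24-2* share UGCCUAC.

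In GENCODE M21 (GRCm38), Mir143 lies on chromosome 18 at 61649196 to 61649258 and Mir145a, the gene of miR-145 and miR-145*, at 61647825 to 61647894, both on the minus strand and 1301 bases apart. Neither hairpin overlaps another annotated gene, and the long noncoding RNA Carmn ends 366 bases before Mir143 on the same strand.

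The libraries held 4360349 to 14961083 miRNA reads, and CPM were scaled by a factor per library of 0.671 (strain 14) to 1.67 (strain 28). In a principal component analysis of the 281 tested miRNAs, the first axis (27.6% of the variance) set the libraries of strains 10, 13, 14 and 20 at its low end, and the main results are given with and without them. The miRNAs of luminal epithelium (miR-200a, miR-200b, miR-200c, miR-141, miR-429 and miR-375) were all found. Their summed level was 39531 to 53791 CPM in these 4 libraries and 28587 to 54739 CPM in the other 14. Finding them does not test the tissue label, because miRNAs known from other tissue were also found. The 6 miRNAs of skeletal muscle in the table, miR-1 among them, summed to 36560 to 303086 CPM in the 4 libraries and 22342 to 161470 CPM in the other 14. No batch is given in the labels.

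miR-143 was among the most abundant miRNAs of every pool. It took between 1.68% (strain 3) and 5.83% (strain 28) of the reads of a library, with a median of 3.04%, and ranked between the 6th and the 15th most abundant miRNA. In scaled units its level was 15251 CPM in the lowest strain, 31203 CPM at the median and 59889 CPM in the highest, with a mean of 33016 ± 13579 CPM (SD, n = 18). The highest levels were 59889 CPM in strain 14, 57456 CPM in strain 10, 51688 CPM in strain 7, 43142 CPM in strain 23 and, in strain 20, 43129 CPM, and the lowest were those of strains 3, 18, 9 and 25, at 15251 to 19165 CPM. The highest level was 3.93 times the lowest. With 170145 to 529202 reads behind each value, read counting and the rounding of the deposited values gave an SD of 0.0040 log2, against 0.60 log2 between strains. Of the 17 steps between neighbours in the order of strains, 4 had overlapping 95% counting intervals (strains 18 and 9, 2 and 13, 13 and 28, and 20 and 23), and these neighbours cannot be ordered. All intervals cover counting and rounding only, since copies made by PCR are not told apart.

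miR-145 was read far less often and was lowest in 3 of the pools in which miR-143 was above its median. Its level was 37.8 CPM in the lowest strain, 161 CPM at the median and 272 CPM in the highest, with a mean of 162 ± 66.4 CPM (SD, n = 18). It stood at 37.8 CPM in strain 10, 65.2 CPM in strain 13 and, in strain 20, 75.4 CPM, and at 111 CPM or more in the other 15 strains. The highest levels were 272 CPM in strain 28, 265 CPM in strain 16, 241 CPM in strain 21 and, in strain 22, 232 CPM. The highest was 7.20 times the lowest, and the SD between strains was 0.74 log2, against 0.042 log2 from counting 325 to 3260 reads. It was 0.42 log2 without strains 10, 13, 14 and 20. Neighbouring strains had overlapping counting intervals at 12 of the 17 steps, but not at the steps from strain 10 to strain 13 and from strain 20 to strain 2. By SD, miR-145 ranked 48 and miR-143 ranked 74 among the 281 tested miRNAs, whose median was 0.45 log2.

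miR-145*, the passenger arm of the same hairpin, was among the steadiest miRNAs of the panel after scaling. It lay between 28.8 CPM (strain 3) and 55.2 CPM (strain 21), with a median of 41.1 CPM and a mean of 40.8 ± 7.14 CPM (SD, n = 18). Its SD of 0.25 log2 ranked 263 of 281, against 0.074 log2 from counting 201 to 639 reads, and at all 17 steps of its order neighbouring strains had overlapping intervals. In strains 10, 13 and 20, where miR-145 was lowest, miR-145* was at 38.3, 33.0 and 41.3 CPM. The passenger arm thus spanned 1.92-fold over the strains in which its guide arm spanned 7.20-fold.

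**Figure D1:**
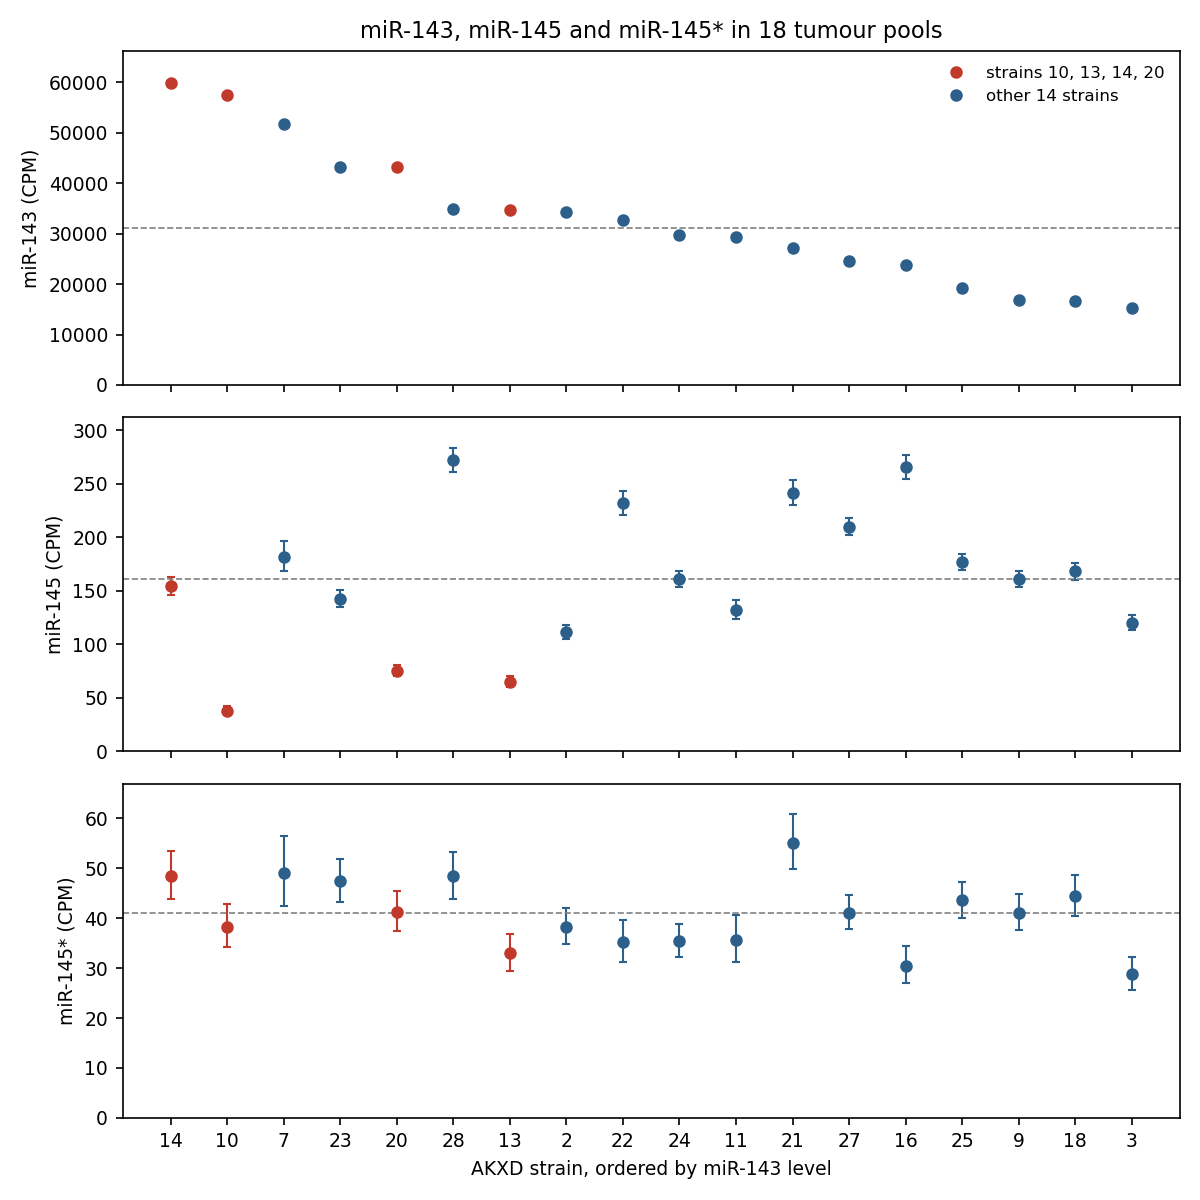
Level of miR-143, miR-145 and miR-145* (CPM, linear axes from 0) in each of the 18 tumour pools, ordered by miR-143; bars are 95% intervals from read counting and rounding and dashed lines the medians. miR-143 is highest in strains 14 and 10, miR-145 is lowest in strains 10, 13 and 20, and miR-145* stays between 28.8 and 55.2 CPM.

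Scaling and depth moved with these levels. The level of miR-145 had a Spearman rho of 0.74 with the scaling factor and 0.83 with the first component (n = 18, a description), that of miR-143 had -0.62 and -0.44, and that of miR-145* had -0.086 and 0.12. With the number of reads the values were -0.48 for miR-145, 0.069 for miR-143 and -0.082 for miR-145*. With libraries scaled by total reads alone, miR-143 was highest in strain 28, at 58273 CPM, miR-145 spanned 16.9-fold and miR-145* spanned 3.18-fold. The share of reads, taken before scaling, had a rho with the scaling factor of 0.89 for miR-145, 0.72 for miR-145* and -0.13 for miR-143. The part of these factors in the strain order was not tested.

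A ratio of reads within a library does not depend on the scaling between libraries. Such a ratio compares reads, not molecules, because miRNAs are not captured equally well. The ratio of miR-143 to miR-145 was 1520 in strain 10, 572 in strain 20, 534 in strain 13 and 388 in strain 14, and between 89.9 (strain 16) and 309 (strain 2) in the other 14 strains. The 4 libraries at the low end of the first component thus had the 4 highest ratios, without overlap with the rest. That component was computed from the tested miRNAs, miR-143 and miR-145 among them, so part of this separation is built in. The share of other miRNA pairs with the same separation was not counted. The highest ratio was 16.9 times the lowest, and the SD of the log2 ratio was 1.12, against 0.042 from counting and rounding. The SD was 0.63 without these 4 strains.

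The ratio of miR-145 to miR-145* was 0.986 in strain 10, with a 95% interval of 0.846 to 1.15, so that the arms were read about equally often there. It was 1.83 in strain 20, 1.97 in strain 13 and 3.18 in strain 14, against 2.91 (strain 2) to 8.69 (strain 16) in the other 14 strains, with a median of 3.85 over all 18. The SD of the log2 ratio was 0.72, against 0.085 from counting and rounding, and 0.43 without strains 10, 13, 14 and 20. Among 57 pairs of arms of which both were tested, the median SD of the log2 ratio was 0.53, and the miR-145 pair ranked 12 from the most variable. Its SD lay above 51.8% of those of all pairs of tested miRNAs. The Spearman rho of the miR-145 arms over the strains, 0.31, was the median of the 57 arm pairs, with 28 of them lower. The ratio of miR-143 to miR-145* was steadier than that of miR-143 to miR-145: it ran from 375 (strain 18) to 1499 (strain 10), with an SD of 0.57 log2 (0.49 without strains 10, 13, 14 and 20), below the median of 0.70 log2 over all 39340 pairs of tested miRNAs.

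**Figure D2:**
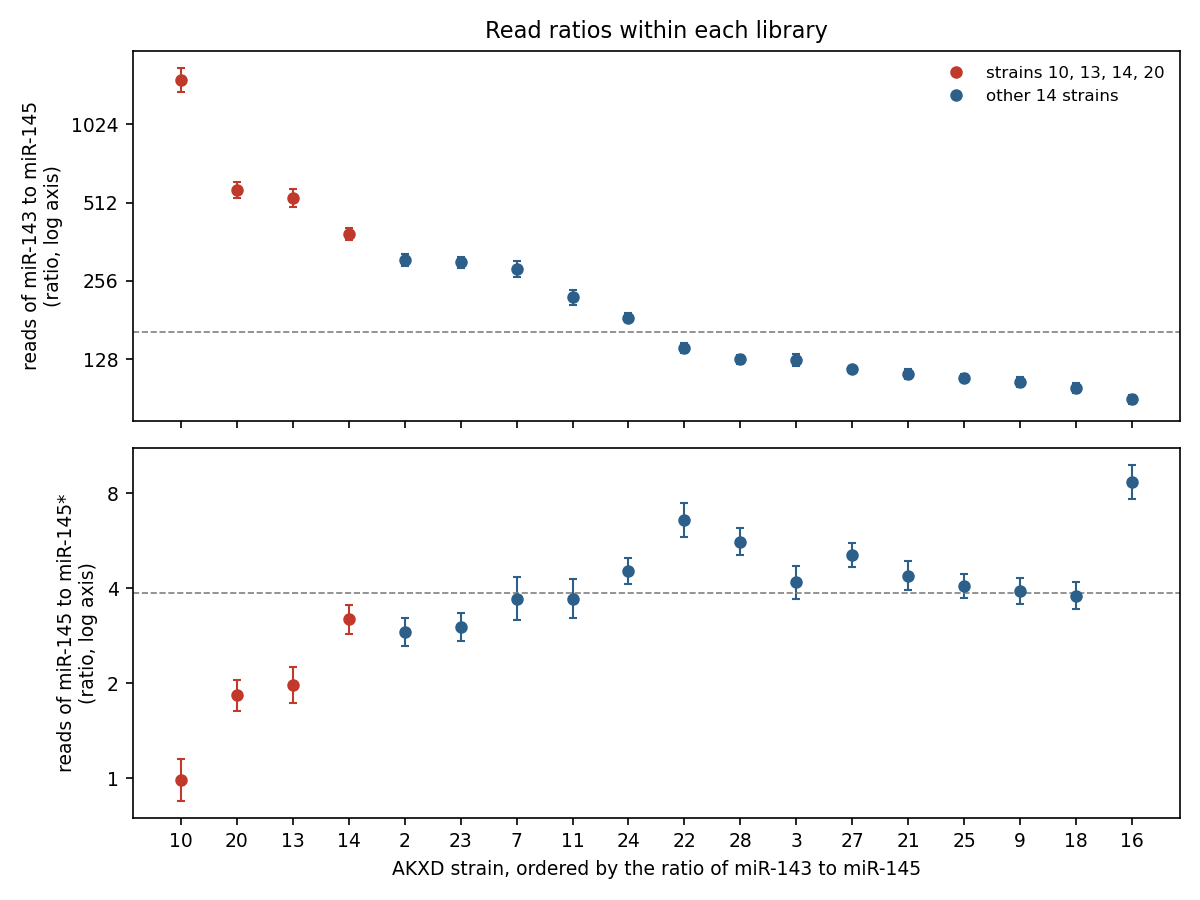
Reads of miR-143 per read of miR-145 (top) and of miR-145 per read of miR-145* (bottom) in each library, on log axes, with strains ordered by the top ratio; bars are 95% intervals from counting and rounding and dashed lines the medians. Strains 10, 20, 13 and 14 have the 4 highest ratios of miR-143 to miR-145, and strain 10 has a ratio of miR-145 to miR-145* of 0.986.

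The next comparison asks whether miRNAs of the shared transcript and hairpin varied together over the strains. Spearman's rho of each of the 3 with every tested miRNA was tested by two-sided permutation, with Benjamini-Hochberg adjustment over all 837 correlations. No pair among the 3 passed. miR-143 and miR-145 had rho = -0.29 (permutation p = 0.238, adjusted p = 0.528) and Pearson r = -0.37 (permutation p = 0.135, adjusted p = 0.375). Their r was -0.50 without strains 3 and 14, the farthest from the median of miR-143, and their rho was 0.064 without strains 10, 13, 14 and 20. miR-143 and miR-145* had rho = 0.36 (permutation p = 0.142, adjusted p = 0.412) and r = 0.32 (permutation p = 0.190, adjusted p = 0.458), with r at 0.054 once strains 3 and 14 were left out. The arms miR-145 and miR-145* had rho = 0.31 (permutation p = 0.205, adjusted p = 0.485) and r = 0.27 (permutation p = 0.275, adjusted p = 0.579), with r at 0.18 once strains 10 and 13 were left out. Without strains 10, 13, 14 and 20 the rho of miR-145* was 0.32 with miR-143 and 0.33 with miR-145. Scaled by total reads alone, the miR-145 arms did pass (rho = 0.79, adjusted p = 0.0034).

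The rho of miR-143 with miR-145 lay above 21.4% of all pairs of tested miRNAs. It was also set beside 135 pairs of tested miRNAs from different hairpins that lie within 10 kb of each other on 1 strand, a set chosen after these values had been seen and which holds miR-143 with miR-145 and with miR-145* themselves. Their median rho was 0.29 (quartiles -0.0010 and 0.59), and 10 of the 135 pairs had a lower rho than miR-143 with miR-145. Guide and passenger arms were both counted, so the same hairpins can enter repeatedly, and the 135 pairs are not independent. The SD of the log2 ratio was 0.49 at the median of these pairs and was above the 1.12 of miR-143 to miR-145 in 7 of them. miR-143 with miR-145* had a higher rho than 76 of the 135. Because no pair among the 3 passed the test of moving together, the 3 are described singly. Not passing in so few pools does not show that the 3 vary independently. Whether they form 1 smooth muscle signal was not tested.

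**Figure D3:**
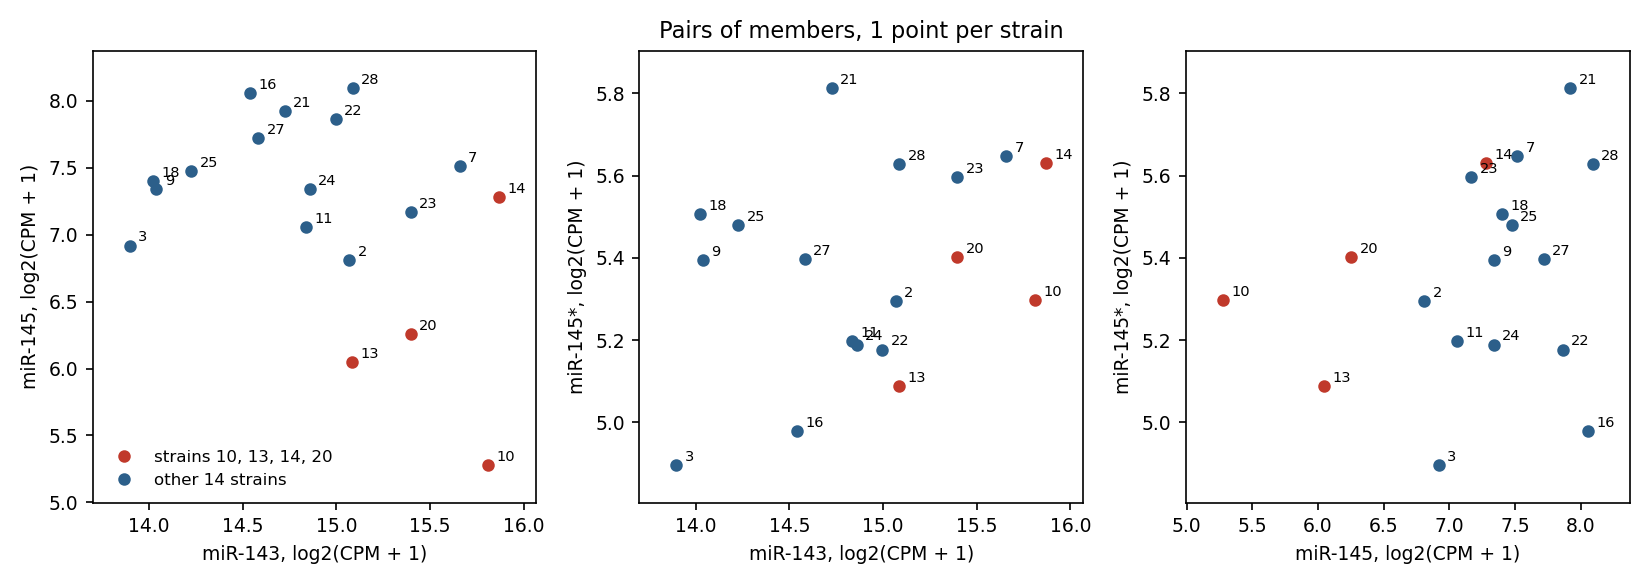
Levels of the 3 pairs of miRNAs, as log2(CPM + 1), 1 point per strain with its number. Strains 10, 13 and 20 lie low in miR-145 at middle to high miR-143, and rho is -0.29 for miR-143 with miR-145, 0.36 for miR-143 with miR-145* and 0.31 for miR-145 with miR-145*.

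Other miRNAs did pass the test with miR-143 or miR-145. For miR-143, 26 of 280 miRNAs passed the test (9.29%), 6 of them with a positive rho (2.14%) and 20 with a negative rho (7.14%). For miR-145 it was 21 of 280 (7.5%), 8 positive (2.86%) and 13 negative (4.64%). For miR-145* it was 0 of 280 (0%; 5 at an unadjusted permutation p under 0.05, 0 with Pearson r). All correlations share the libraries and their scaling, and of all 39340 pairs 4.33% had a rho at least as far from 0 as the smallest that passed, 0.67. These counts changed when libraries were left out, which also leaves fewer samples, and the part of each was not tested. Without strains 10, 13, 14 and 20, 0 passed for miR-143 and 0 for miR-145, and without strain 14 alone it was 0 and 0. For miR-143 it was 6 without strain 10 or 18, 7 without strain 20 or 27, 8 without strain 13 or 16, 10 without strain 23 and 13 without strain 9. For miR-145 it was 0 without strain 13 or 20, 1 without strain 10 or 27, 2 without strain 16, 3 without strain 18, 6 without strain 28, 7 without strain 23, 11 without strain 9 and 13 without strain 2. With total reads alone 3 passed for miR-143 (2 positive, 1 negative), 119 for miR-145 (119 positive, 0 negative) and 71 for miR-145* (71 positive, 0 negative).

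The 5 miRNAs most like miR-143 were let-7i, let-7f, miR-34c, miR-184 and let-7a. let-7i, a member of the let-7 family, which restrains growth genes such as Ras and Lin28, was at 2492 CPM in its lowest strain (18), 3220 CPM at the median and 5212 CPM in its highest strain (7). Strains 9 and 18 were low and strains 7 and 10 high in both let-7i and miR-143 (rho = 0.84, adjusted permutation p = 0.0112; r = 0.78, and 0.81 without strains 3 and 14). let-7f, at 34475 to 128390 CPM, had rho = 0.80 (adjusted permutation p = 0.0209), and let-7a, at 34316 to 79583 CPM, had rho = 0.73 (adjusted permutation p = 0.0368). These let-7 miRNAs share the seed shown above and differ by few bases, so reads may be shared between them. By the measure that needs no scaling, let-7f, let-7i and let-7a were also the 3 miRNAs with the steadiest ratio to miR-143, with SDs of 0.39, 0.42 and 0.42 log2, whereas miR-145 ranked 240 of 280. miR-34c, a target of p53, had rho = 0.76 (adjusted permutation p = 0.0288) but r = 0.52 (adjusted permutation p = 0.110), and its level of 2397 CPM in strain 23 stood against a median of 579 CPM. miR-184, known from the cornea and other epithelia, had rho = 0.73 (adjusted permutation p = 0.0379) and reached 1783 CPM in strain 10 against a median of 360.5 CPM. Without strains 10, 13, 14 and 20 the rho of these 5 was 0.77, 0.63, 0.77, 0.60 and 0.45, in the order of the first sentence, and no call was kept.

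The 3 miRNAs most unlike miR-143 were miR-297c, miR-106b and miR-18a. miR-297c, from a large intronic cluster of near-identical miRNAs in Sfmbt2 whose reads can be shared, was lowest where miR-143 was high, at 4.41 CPM in strain 10, and highest in strain 9, at 54.9 CPM (rho = -0.87, adjusted permutation p = 0.0112). miR-106b, of the growth-promoting miR-17 family, was at 798 CPM in strain 14, 1721 CPM at the median and 2752 CPM in strain 25 (rho = -0.82, adjusted permutation p = 0.0112; r = -0.82, and -0.75 without strains 3 and 14). miR-18a, from the miR-17-92 cluster, was lowest in strain 14 and reached 698 CPM in strain 3, against a median of 433 CPM (rho = -0.82, adjusted permutation p = 0.0167). Without strains 10, 13, 14 and 20 the values of rho were -0.86, -0.80 and -0.79, and no call was kept. The miR-17 family did not follow miR-106b as a whole. With miR-143, miR-20a (-0.80) passed, but miR-20b (-0.38), miR-17 (-0.17), miR-106a (-0.044) and miR-93 (0.063) did not. The other arm, miR-106b*, had rho = 0.45 and did not pass. These were picked after their values had been seen.

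The 5 miRNAs most like miR-145 were miR-23a, miR-24-2*, miR-24-1*, miR-29b and miR-22. miR-23a, which shares a transcript with the miR-24-2 hairpin, was at 157 CPM in strain 10, 416 CPM at the median and 902 CPM in strain 22 (rho = 0.77, adjusted permutation p = 0.0301; r = 0.82, and 0.68 without strains 10 and 13). miR-24-2* and miR-24-1*, passenger arms of the hairpins of miR-24, had rho = 0.75 (adjusted permutation p = 0.0352) and rho = 0.73 (adjusted permutation p = 0.0368). miR-29b, which lowers collagens and other matrix genes, had 96.3 CPM (strain 10) to 555 CPM (strain 25), with a median of 353 CPM (rho = 0.72, adjusted permutation p = 0.0379). miR-22 had 105 CPM (strain 10) to 603 CPM (strain 22), with a median of 372 CPM (rho = 0.71, adjusted permutation p = 0.0379). All 5 had their lowest level in strain 10, as miR-145 had. Without strains 10, 13, 14 and 20 the rho of these 5 was 0.64, 0.47, 0.54, 0.52 and 0.40, and no call was kept. The guide arm miR-24 had rho = -0.51 with miR-145 (adjusted permutation p = 0.167; -0.29 without the 4 strains), which did not pass.

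The 3 miRNAs most unlike miR-145 were miR-541, miR-200c and miR-183. miR-200c, an epithelial miRNA that keeps E-cadherin on by lowering ZEB1 and ZEB2, was at its highest in strain 10 (26253 CPM) and its lowest in strain 28 (11094 CPM), with a median of 15325 CPM, the strains being the pools with the least and the most miR-145 (rho = -0.75, adjusted permutation p = 0.0352; r = -0.79, and -0.66 without strains 10 and 13). miR-541, from the imprinted Dlk1-Dio3 region, had rho = -0.79 (adjusted permutation p = 0.0209) and lay between 383 CPM (strain 16) and 864 CPM (strain 13). miR-183, from the cluster with miR-96 and miR-182, had 18308 CPM (strain 10) at its highest and 4016 CPM (strain 16) at its lowest (rho = -0.74, adjusted permutation p = 0.0352). The cluster did not go 1 way with miR-145: miR-182 had rho = -0.56, miR-96 had 0.50 and the other arm miR-183* had 0.53. None of these passed, and their values were picked after being seen. Without strains 10, 13, 14 and 20 the values of rho were -0.65 for miR-541, -0.46 for miR-200c and -0.62 for miR-183, and no call was kept. miR-1968 had the same rho as miR-183. With total reads alone that of miR-541 turned to 0.12.

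**Figure D4:**
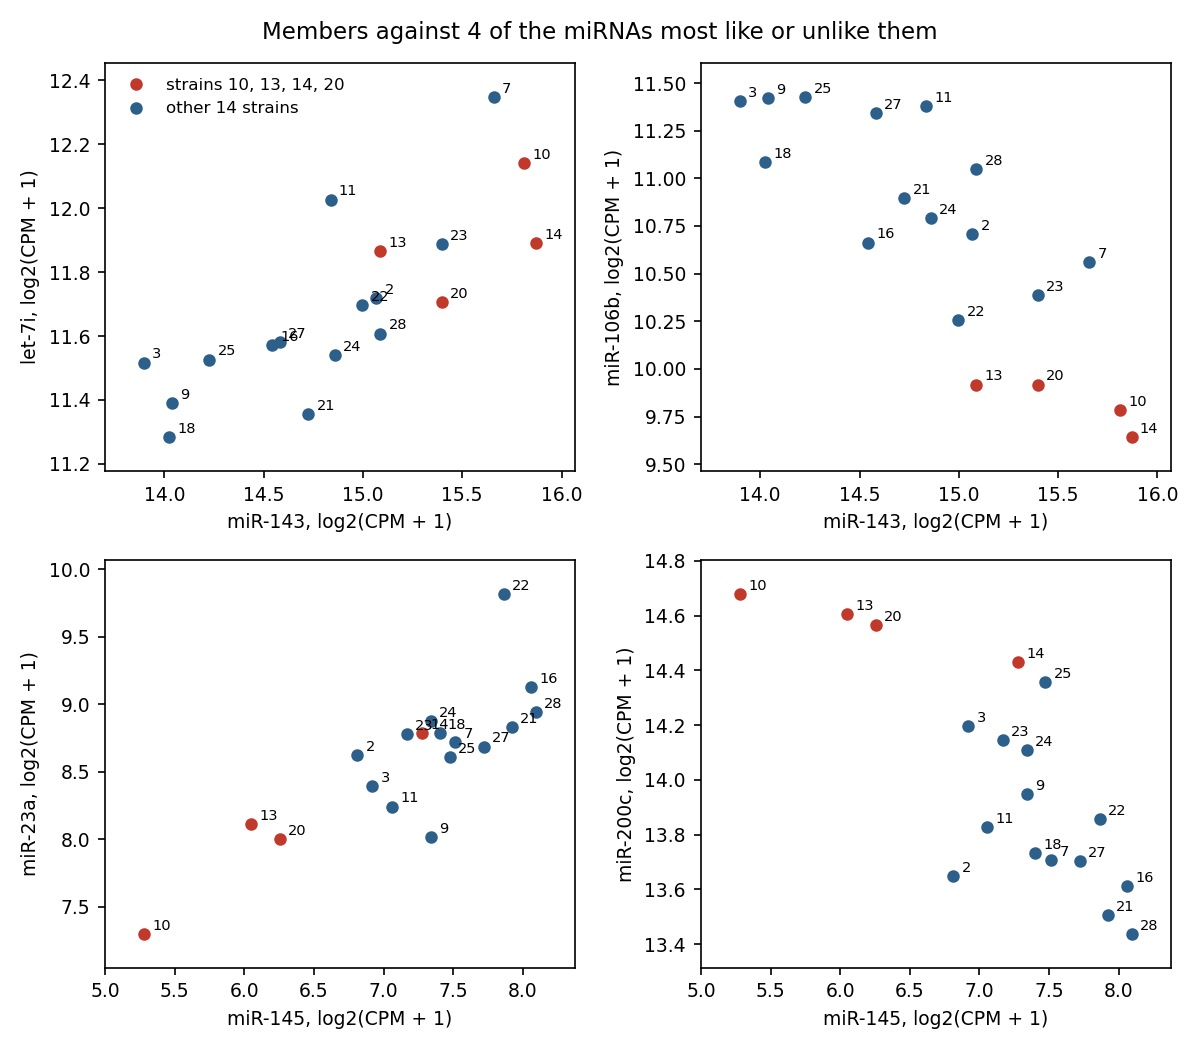
miR-143 against let-7i and miR-106b (top) and miR-145 against miR-23a and miR-200c (bottom), as log2(CPM + 1), 1 point per strain with its number. let-7i is high where miR-143 is high (rho 0.84) and miR-106b is low there (-0.82), and strain 10 has the least miR-145 and miR-23a and the most miR-200c.

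For miR-145* no correlation passed. The highest rho was with miR-125b-5p (rho = 0.56, adjusted permutation p = 0.120), at 633 to 1637 CPM, followed by let-7d*, miR-125b-3p, miR-21* and miR-199b* at rho of 0.41 to 0.45. The most unlike were miR-374 (-0.54), miR-467e (-0.52) and miR-301a (-0.51). With total reads alone miR-21* (0.84), let-7d* (0.74), miR-125b-5p (0.68) and miR-199b* (0.62) passed. By the ratio of reads, which needs no scaling, miR-125b*, miR-652 and let-7d* were steadiest to miR-145*, with SDs of 0.26, 0.27 and 0.29 log2. miR-125b* and miR-652 were named after their values were seen.

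**Figure D5:**
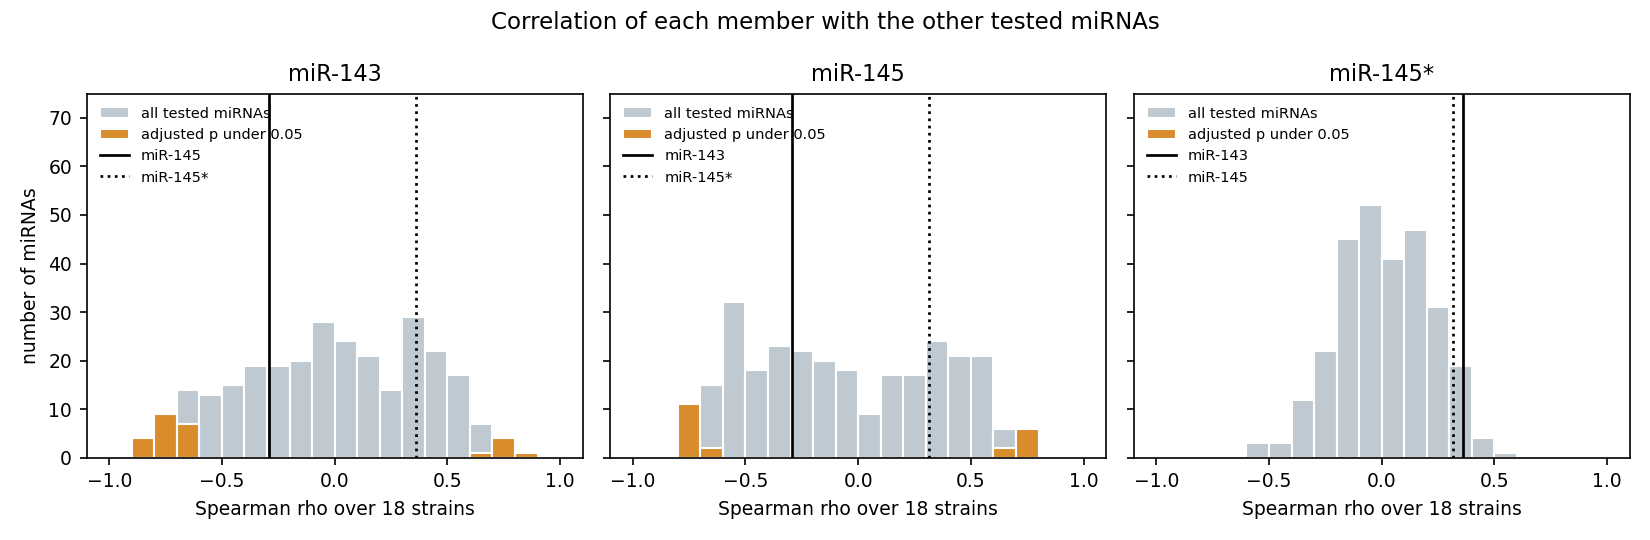
Number of tested miRNAs by their Spearman rho over the 18 strains with miR-143, miR-145 and miR-145*; orange marks an adjusted p under 0.05 and lines mark the others of the 3. The values for miR-145* crowd around 0 with none past the threshold, against 26 for miR-143 and 21 for miR-145.

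Lists of miRNAs known from single cell types were then set beside the 3 miRNAs. With 9.29% of all tested miRNAs called for miR-143 and 7.5% for miR-145, lists of 1 to 6 members can hold no call without standing apart from the rest. Among 4 tested mesenchymal miRNAs, miR-199a-3p, miR-199b*, miR-214 and miR-214*, 0 passed with miR-143 in either direction (median rho 0.091, against -0.0031 over all 280) and 0 with miR-145 (median 0.14, against -0.10). Their rho ran from -0.28 to 0.37 with miR-143 and from -0.16 to 0.58 with miR-145, where the highest was miR-199b* (adjusted permutation p = 0.110; 0.56 without strains 10, 13, 14 and 20). miR-199a-3p, made in fibroblasts and other mesenchymal cells, was at 571 to 1159 CPM. Among 5 tested miRNAs of skeletal muscle, 0 passed with miR-143 (rho of -0.27 to 0.22) and 0 with miR-145 (-0.43 to 0.33), although miR-1, which myocardin also drives, ran from 21455 to 290869 CPM and miR-206 from 743 to 11666 CPM. Among 5 miRNAs studied in the switch of smooth muscle between growth and contraction (miR-21, miR-221, miR-222, miR-24 and miR-26a), 0 passed with miR-143 (median rho 0.044) and 0 with miR-145 (median -0.19). Leukocyte miRNAs (5 tested, among them miR-142-3p and miR-142-5p), erythroid miRNAs (3 tested, among them miR-451 and miR-486) and basal epithelial miR-203 and miR-205 also gave 0 calls, with medians between -0.14 and 0.22 over miR-143 and miR-145. With miR-145* no list had a call, and the medians lay between -0.20 and 0.14.

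Of the 6 epithelial miRNAs, 1 passed with miR-143 and 1 with miR-145, a count too small to set against the 9.29% and 7.5% over all tested miRNAs. miR-200a passed with miR-143 (rho = -0.68, adjusted permutation p = 0.0462; -0.69 without strains 10, 13, 14 and 20, where it did not pass) and miR-200c with miR-145, each with a negative rho. With the other of the pair their rho was positive and did not pass, at 0.24 for miR-200a with miR-145 and 0.28 for miR-200c with miR-143. miR-141, the partner of miR-200c on its transcript, had rho = -0.57 with miR-145 (adjusted permutation p = 0.120; -0.33 without the 4 strains). The median rho of the list was -0.10 with miR-143 and -0.43 with miR-145.

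Of the endothelial pair, miR-126-3p had rho = 0.49 with miR-143 (adjusted permutation p = 0.191) and -0.65 with miR-145 (adjusted permutation p = 0.0596), and neither passed. These were 0.22 and -0.53 without strains 10, 13, 14 and 20. miR-126-5p, the other arm of the hairpin, had the opposite signs, with rho = -0.26 with miR-143 (adjusted permutation p = 0.605) and 0.37 with miR-145 (adjusted permutation p = 0.389), and 0.14 and -0.090 without those strains. The summed level of miR-126-3p and miR-126-5p was 16195 to 22301 CPM in strains 10, 13, 14 and 20 and 8286 to 19482 CPM in the other 14 strains. The liver miRNA miR-122 had rho = -0.64 with miR-145 (adjusted permutation p = 0.0701; -0.56 without those 4 strains), and was at 57.9 to 375 CPM in those 4 strains and 1.56 to 166 CPM in the others. The part of these other cell types in the levels of miR-143 and miR-145 was not tested.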

How the data were processed

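The authors deposited log2 values with 2 decimals for 583 mature miRNAs, with 1 column for each of the 18 pools, matched through the labels' descriptions. BWA and mm9 are named, with no role, per the submitters' processing notes, and the sources used here give no counter or filter. Made linear, the values were whole multiples of a constant of each library (100% of 3818 values of up to 50 reads, within 0.006 log2), and 0 stood for no reads. Of 20 rows in 8 identical sets, 1 row per set was used. Scaling used trimmed means of M values (30% and 5% trimmed); correlations used log2(CPM + 1). Permutation tests drew 100000 resamples (Python 3.11.15, numpy 2.4.6, pandas 2.3.3, scipy 1.17.1). They were also run on simulated data with 1 planted signal and otherwise independent miRNAs. That run does not test them under variation shared by many miRNAs, as in these libraries. With 1 pool per strain, p-values refer to these libraries. A call is an adjusted p under 0.05. Counting intervals are Poisson at 95%, widened by 0.005 log2 of rounding.

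miRNAs were named by rule: the 5 highest and 3 lowest rho with each member, and the 2 most abundant tested members of each list (3 for the mesenchymal and epithelial lists); others spell out a list or are said to be chosen after their values were seen. Members and lists were chosen with earlier results of these data known. Alternatives were other scalings, pseudocounts, filters and correlation measures, strains left out, every row counted and the first component removed. miR-143* was not analysed here. Older miRNA names were matched to RefSeq arm names by hand.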

Additional observations from a re-analysis of the deposited data

How the results depend on the processing

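The number of correlated miRNAs depended most on the processing. For miR-143 it was 26, against 3 with total counts alone, 9 with median-of-ratios factors, 8 with upper-quartile scaling, 11 with no filter, 12 with every row counted, 45 with Pearson r, 0 with strains 10, 13, 14 and 20 left out, 0 with strain 28 left out too, and 1 when the first component was taken out. For miR-145 it was 21, against 119, 6, 1, 3, 7, 64, 0, 0 and 0 in the same order of settings, and for miR-145* it was 0, against 71 with total counts alone. With single strains left out the counts ran from 0 to 24 for miR-143, 0 to 26 for miR-145 and 0 to 0 for miR-145*. The SD of miR-145, 0.74 log2, was 0.42 without the 4 strains, 0.39 without the 5 and 0.36 with the component removed, and that of miR-145*, 0.25, was 0.41 with total counts alone. The SD of the log2 ratio of miR-143 to miR-145, 1.12, was 0.63 and 0.65 without the 4 and the 5 strains, and that of miR-145 to miR-145*, 0.72, was 0.43 and 0.43.

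The correlation of miR-143 with miR-145 was -0.29 and turned to 0.064 without the 4 strains and 0.37 with the component removed, never past the threshold (adjusted p of 0.967 and 0.606). For miR-145 and miR-145* it passed with total counts alone (0.79). Of 30 correlations with named miRNAs, 17 were called: 17 were kept at either other pseudocount and 16 with Pearson r, 12 with median-of-ratios factors and 12 with every row counted, 8 with no filter, 7 with upper-quartile scaling and 6 with total counts alone. Without the 4 strains, without the 5 and with the component removed 0 of the 17 were kept. With 1 strain left out at a time, these calls were kept in 190 refits and lost in 116. With total counts alone the correlations of miR-145 with miR-541 (0.12), miR-24 (0.38) and miR-141 (0.011) and of miR-145* with miR-374 (0.48), miR-467e (0.21) and miR-301a (0.28) changed sign, as did that of miR-145 with miR-122 with the component removed (0.22). The cause was not tested, except that 14 or 13 strains leave fewer samples. miR-145* gave no value at a mean of 100 CPM. No paired analysis was possible because every strain is 1 pool. Read counting limits miR-145* most, at 0.074 log2.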

Other observations

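Beyond the miRNAs named by rule, the partners of miR-143 that passed the test held further members of known groups, which were picked after their values had been seen and get no test as groups. Of the miR-17-92 cluster, miR-20a (rho = -0.80 with miR-143), miR-19b (-0.70) and miR-19a (-0.69) passed beside miR-18a, all negative (-0.74, -0.45 and -0.51 without strains 10, 13, 14 and 20), whereas miR-17 (-0.17) and miR-92a (-0.27) did not. With miR-145 the same miRNAs had rho of 0.18 for miR-20a, 0.61 for miR-19b, 0.48 for miR-19a, 0.45 for miR-18a, 0.45 for miR-92a and -0.25 for miR-17, and none passed. The other let-7 guide arms had positive rho with miR-143 that did not pass: let-7g 0.57, let-7c 0.43, let-7b 0.42, let-7e 0.41 and let-7d 0.26. Without the 4 strains these were 0.45, 0.064, -0.10, 0.073 and -0.068.

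A pair of miRNAs passed with both miR-143 and miR-145, in opposite directions. miR-24-1* had rho = -0.68 with miR-143 and 0.73 with miR-145, and miR-340-5p had rho = 0.69 with miR-143 and -0.71 with miR-145. Without the 4 strains the values were -0.52 and 0.54 for miR-24-1* and 0.55 and -0.42 for miR-340-5p, and none passed.

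miR-21, one of the most abundant miRNAs of these tumours and a member of the smooth muscle phenotype list, was at 274 CPM in strain 28 and between 52923 and 79893 CPM in the other 17 strains. The other arm of its hairpin, miR-21*, went the other way. It was at its highest in strain 28, at 115 CPM against a median of 58.4 CPM. Whether the low miR-21 value belongs to the tumours or to the deposited value alone was not tested. Strain 28 also had the largest scaling factor, 1.67, and the most miR-145, and the part of its miR-21 value in these was not tested.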
